A study of Dendrobium nobile with 12 samples.

Results

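The 100 gene models described here were the steadiest of the well-expressed models across 6 organs of the orchid Dendrobium nobile, the kind of models among which reference genes are sought. They were chosen in 2 steps from the deposited FPKM values (fragments scaled by coding length and by the total count of the library). A model first had to reach an FPKM of at least 20 in all 12 libraries, which 3565 of 31672 models (11.3%) did. Among those, the 100 with the lowest coefficient of variation (the SD over the 12 FPKM values divided by their mean) were taken, 2.81% of the 3565. The choice used the values of every library. Steadiness on that scale is therefore given as a description and not as a finding.

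The libraries profile bud, labellum (the petal that forms the lip of the flower) and petal from seedlings of 2 years, and root, stem and leaf from seedlings of 1 year, with 2 libraries per tissue. All carry the same genotype label, whose name begins with chichai, and come from greenhouse plants, with no treatment beyond the choice of tissue. Bud, labellum and petal are called floral and the other 3 tissues vegetative. Organ class and seedling age change together and cannot be told apart, and the labels do not say of which kind the bud was. All 12 libraries are labelled D. nobile, whereas the design text of the series names D. officinale. Whether the 2 libraries of a tissue are from different plants is not labelled, so p-values here reflect only library-to-library spread, possibly technical. Total counts were 5289212 in root replicate 2, 14165136 in root replicate 1 and between 27175842 and 32040196 in the other 10 libraries.

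A reference gene is a transcript used as a yardstick. Its level is assumed to be equal in every sample, and the levels of other genes are read against it, most often in quantitative PCR. Usual choices in plants are genes for actin, tubulin, ubiquitin, elongation factor and glyceraldehyde-3-phosphate dehydrogenase, whose products serve the cytoskeleton, protein turnover, translation and glycolysis in all cells. Those choices are known to vary between organs in many species, and several genes are therefore commonly averaged. Sequencing libraries add a further point, because each value is relative to the rest of the library, so a transcript is steady only with respect to a stated scaling. Members are known only by their model identifiers, since no annotation with gene names was used here. For this reason no function is given for any member, the usual reference genes were not looked up among them, and the tissue labels were not checked against marker genes.

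The 100 models varied little and stood in the lower part of the range of levels. Their coefficients of variation ran from 6.11% to 14.4% with a median of 12.2%, while the median of the 3565 well-expressed models was 39.5%. Between the highest and the lowest tissue mean of a member the ratio was 1.14 to 1.52, with a median of 1.33, against a median of 2.83 over the 3565 models. It reached 1.5 in 2 members and 2 in none. Each library is bulk tissue, in which fewer cells of a type and less RNA per cell cannot be told apart. Single libraries spread further, with a ratio of highest to lowest library of 1.22 to 1.82, and this ratio stayed under 1.5 for 48 members. Mean FPKM of the members ran from 25.4 to 381 with a median of 49.7, against a median of 96.0 for all 3565 models. Of the members 22 had a mean of at least 100 FPKM and 5 of at least 200, while 48.2% and 24.4% of the 3565 did. The minimum of 20 FPKM in every library itself admits models of low mean only if they vary little.

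**Figure D1:**
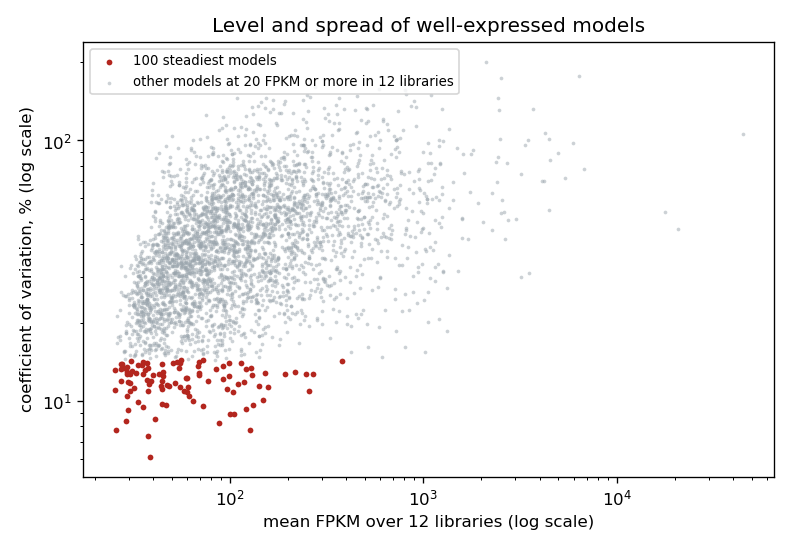
Mean FPKM over 12 libraries (x, log scale) against the coefficient of variation in percent (y, log scale) for the 3565 models at 20 FPKM or more in every library. The 100 steadiest models (red) lie at or under 14.4% and mostly at the low end of the levels, with a median of 49.7 FPKM, and the rest of the models (grey) lie above them.

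The limit at rank 100 fell in a smooth run of values. Just inside it were evm.model.Chr18.109-gene at 14.2%, evm.model.Chr16.3-gene at 14.3% and evm.model.Chr06.2247-gene at 14.4%. Just outside were evm.model.Chr09.2223-gene at 14.4%, evm.model.Chr17.1889-gene at 14.5% and evm.model.Chr14.93-gene at 14.5%. The next 100 models by rank had a median of 15.7% and a median tissue ratio of 1.47, so the list has no natural edge there. Their mean FPKM had a median of 48.0, close to that of the members. Leaving out each library in turn and choosing again kept between 74 and 94 members. The 65 that stayed in all 12 of these lists included the first 53 by rank.

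The steadiest model was evm.model.Chr17.1597-gene (chromosome 17, coding length 1047 bp), at 38.7 ± 2.37 FPKM (SD over 12 libraries). It stood at 43.2 and 37.5 FPKM in bud, 38.2 and 40.7 in labellum, 36.6 and 34.6 in petal, 37.4 and 38.1 in root, 39.9 and 37.0 in stem, and 40.5 and 40.8 in leaf. Bud and petal held its extremes, and the floral and vegetative libraries overlapped. Its class means were 38.5 FPKM in floral and 38.9 FPKM in vegetative libraries (n = 6 each).

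The next in rank, evm.model.Chr17.1070-gene (chromosome 17, 1929 bp), was the only member whose floral and vegetative libraries did not overlap. It stood at 37.1 and 33.5 FPKM in bud, 35.9 and 37.4 in labellum, and 34.1 and 34.9 in petal, against 39.6 and 41.6 in root, 39.4 and 41.9 in stem, and 39.6 and 37.7 in leaf. All 6 floral libraries lay below all 6 vegetative ones, by a ratio of class means of 0.888. Among the 3565 well-expressed models 28% had their floral libraries all above and 7.1% all below the vegetative ones. This separation does not hold on every scaling, as described below.

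Next was evm.model.Chr02.1097-gene (chromosome 2, 1197 bp), an abundant member at 127 ± 9.85 FPKM. It stood at 138 and 128 FPKM in bud, 126 and 131 in labellum, 125 and 129 in petal, 119.8 and 126 in root, 142 and 135 in stem, and 110.1 and 110.5 in leaf. Stem was highest and leaf lowest, by a ratio of 1.26, and the 2 leaf libraries lay below the other 10.

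The other 7 of the 10 steadiest lay between 7.78% and 9.26%, on 7 different chromosomes. Of these, 3 were under 30 FPKM on average: evm.model.Chr09.2272-gene at 25.8 ± 2.01, evm.model.Chr07.669-gene at 29.2 ± 2.46 and evm.model.Chr03.378-gene at 29.9 ± 2.77 FPKM. For evm.model.Chr09.2272-gene the floral libraries had a lowest, median and highest value of 24.9, 28.1 and 28.6 FPKM, against 23.5, 24.0 and 26.3 FPKM in the vegetative libraries. Its bud libraries (28.5 and 28.6 FPKM) lay above all vegetative ones, while labellum and petal overlapped with root. Root was low for evm.model.Chr07.669-gene, at 27.5 and 23.5 FPKM, where stem, the highest tissue, had 31.3 and 31.5.

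The remaining members of the first 10 were more abundant. Root was the highest tissue for evm.model.Chr04.1152-gene (87.9 ± 7.27 FPKM), with 102.98 and 93.9 FPKM in root and 76.5 and 84.6 in bud, the lowest tissue. Stem was highest for evm.model.Chr18.2362-gene (100.2 ± 8.91 FPKM), with 112 and 115 FPKM, against 89.7 and 94.8 in petal. For evm.model.Chr12.1599-gene (105 ± 9.36 FPKM) bud was highest, at 106 and 120.5 FPKM, and labellum lowest, at 90.1 and 94.7. A single root library carried much of the spread of evm.model.Chr13.489-gene (41.1 ± 3.52 FPKM), which stood at 32.8 FPKM in root replicate 1 and between 37.4 and 45.5 FPKM in the other 11 libraries. No tissue was the highest or the lowest throughout these 10 models.

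**Figure D2:**
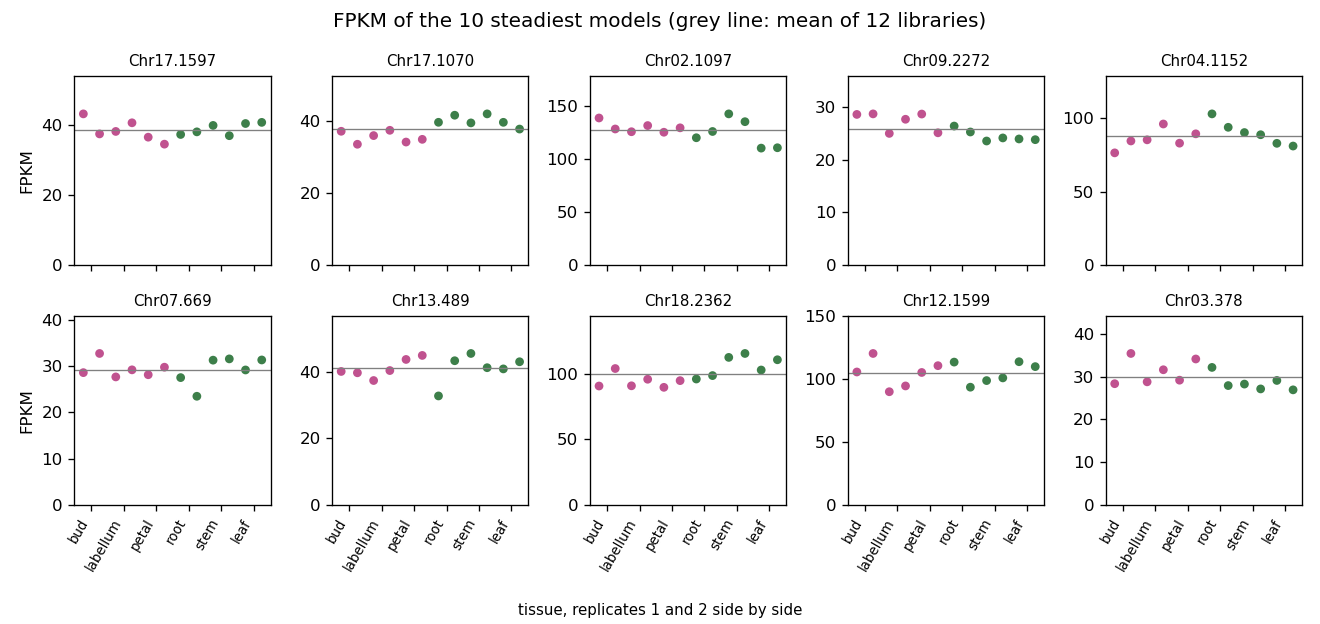
FPKM (y, from 0) of the 10 models with the lowest coefficient of variation in the 12 libraries (x, 2 replicates per tissue side by side, floral in pink and vegetative in green). The grey line is each model's mean, from 25.8 FPKM for Chr09.2272 to 127 FPKM for Chr02.1097, and the panel titles give the identifier without its prefix and suffix.

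The 5 most abundant members were steady at a mean of over 200 FPKM, though 4 of them ranked between 60 and 97. At the top, evm.model.Chr18.569-gene (chromosome 18, 1143 bp, 381 ± 54.1 FPKM, rank 97) stood at 427 and 429 FPKM in bud, 355 and 408 in labellum, 373 and 339 in petal, 428 and 431 in root, 419 and 392 in stem, and 289.7 and 281 in leaf. Leaf lay below the other 10 libraries, and root and bud were highest and close to each other. Labellum was high for evm.model.Chr12.1340-gene (1977 bp, 269 ± 34.2 FPKM), with 314 and 345 FPKM, where stem, the lowest, had 232 and 229. For evm.model.Chr09.823-gene (1245 bp, 255 ± 27.9 FPKM, rank 24) stem was highest at 295 and 305 FPKM and leaf lowest at 226 and 231. Both evm.model.Chr09.1981-gene (1338 bp, 249 ± 31.7 FPKM) and evm.model.Chr17.358-gene (2436 bp, 217 ± 28.1 FPKM) were highest in root and lowest in leaf. The first had 284 and 282 FPKM in root and 192 and 191 in leaf. The second had 236 and 272 FPKM in root and 179 in each leaf library. Leaf was thus on FPKM the lowest tissue of 4 of these 5 models.

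Among all 100 members, leaf was on FPKM the tissue most often lowest and stem the one most often highest. This order of tissues does not hold on every scaling, as described below. The lowest mean was in leaf for 28 members, in petal for 23, in bud for 15, in root and in stem for 13 each, and in labellum for 8. Stem had the highest mean in 22 members, bud in 20, root in 19, labellum in 18, petal in 12 and leaf in 9. The 3565 well-expressed models had their lowest mean in leaf in 35.3%, in root in 27.2% and in petal in 12.4% of cases. Their highest mean was in bud in 29.8% and in stem in 12.5%. Median ratios of a tissue to the member's own mean stayed between 0.966 in leaf and 1.02 in labellum and stem. Pairs of tissues were close for the members, with a median fold difference in either direction of 1.09 (labellum and petal) to 1.13 (bud and petal, root and stem). For the 3565 models the same medians ran from 1.18 for labellum and petal to 1.81 for bud and root and for petal and leaf. Petal and stem differed at least 1.25-fold in 20 members, the most of the 15 pairs, and labellum and petal, labellum and stem, and petal and root in 10 each, the fewest.

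The members with the largest tissue ratios show what the list still admits. In evm.model.Chr11.1695-gene (chromosome 11, 642 bp) root stood at 86.0 and 83.6 FPKM, and the other 10 libraries at 102 to 131 FPKM, with petal highest (127 and 131), a ratio of 1.52. Bud was the low tissue of evm.model.Chr16.1598-gene (1473 bp), at 24.0 and 22.1 FPKM, against 31.7 and 36.5 in labellum. It was low too in evm.model.Chr16.409-gene (1077 bp), at 84.6 and 117 FPKM, against 146 and 154 in leaf. In the first 2 of these 3 models the 2 libraries of the low tissue lay together, outside the other 10. In evm.model.Chr16.409-gene the 2 bud libraries also lay below the other 10, but 1.39-fold apart.

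Bud replicate 1 was the library farthest from the members' own means. The SD of the members' log2 deviations was 0.243 in bud replicate 1, 0.170 in bud replicate 2 and 0.140 to 0.179 in the other 10 libraries. Over the 3565 well-expressed models the same SD was 0.739 in bud replicate 1 and larger in root, at 0.891 and 0.869. Among the members, bud replicate 1 was the most deviant library of 25, ahead of bud replicate 2 with 13. In bud replicate 1, 36 members lay within 10% of their own mean, against 53 to 71 in the other 11 libraries. Replicates differed by a median of 1.16-fold in bud, 1.10-fold in labellum and root, 1.07-fold in petal and 1.04-fold in stem and leaf. The largest replicate difference of a member was in bud for 54 members and in root for 23. Over the 100 members 32.2% of the squared log2 deviations lay between the replicates of a tissue, 14.3% within bud alone. For the 3565 models the shares were 5.36% and 2.79%. The replicates of the members were still the closer ones, with a median replicate SD of log2 FPKM of 0.122, against 0.183. In bud the median replicate ratio was 1.16, against 1.28 for the 3565 models. The rule took the spread over all libraries, so it left the members little difference between tissues and also favoured close replicates. Nothing is therefore read from the larger shares or from the closer replicates. The median coefficient of variation of the same members without the 2 bud libraries was 10.9%.

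**Figure D3:**
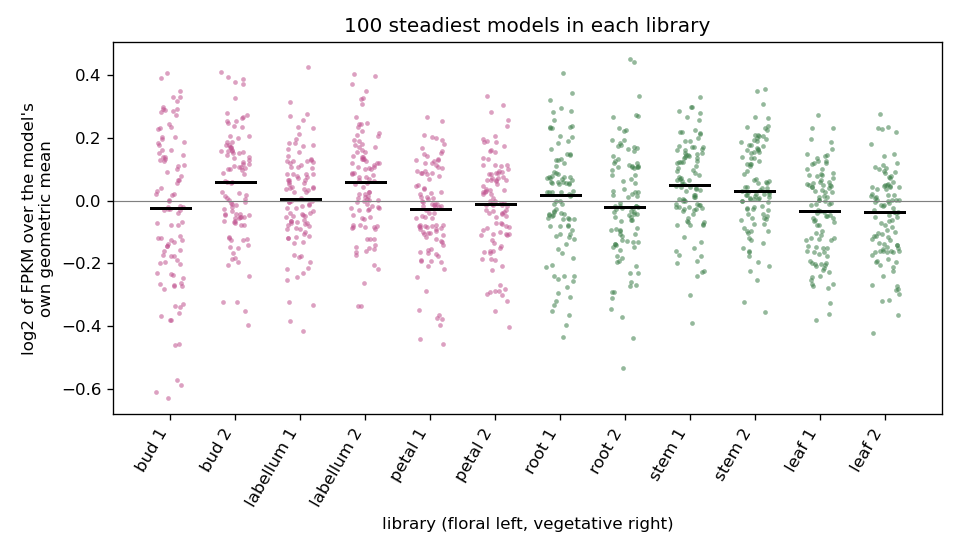
Each point is 1 of the 100 steadiest models in 1 library (x, floral in pink on the left, vegetative in green on the right), placed by the log2 of its FPKM over its own geometric mean (y). Black bars are medians, which lie between -0.037 and 0.059. The points spread most in bud replicate 1, with an SD of 0.243.

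In 3 members the replicates of bud lay more than 1.5-fold apart. In evm.model.Chr06.2247-gene (1467 bp, rank 100) bud stood at 48.4 and 87.4 FPKM, a ratio of 1.81, while the other tissue means ran from 69.0 FPKM in leaf to 85.0 FPKM in stem. In evm.model.Chr09.485-gene (789 bp) bud stood at 28.0 and 46.7 FPKM, and the other 10 libraries at 37.6 to 46.7. The order was the other way in evm.model.Chr05.542-gene (417 bp), with 48.8 and 28.8 FPKM in bud and 32.8 to 43.3 FPKM elsewhere. In all 3 models the bud libraries held both the lowest and the highest value. In evm.model.Chr09.485-gene the upper one lay level with the other flower libraries.

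Counting error was smaller than the observed spread in every member. The members' counts allow a coefficient of variation of 0.948% to 5.90%, with a median of 2.90%, from independent reads alone. The observed coefficient was at least 1.73 times that value in every member. The smallest count of a member was 75 in root replicate 2, for evm.model.Chr05.542-gene, and 298 outside root. Members took 0.846% to 0.948% of all counts of a library, lowest in leaf and highest in labellum replicate 2.

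The members were chosen on FPKM and were also read on 2 other scales. FPKM divides by the total count. TPM divides instead by the sum of the length-scaled values, and TMM (the scaling of edgeR) centres most models between libraries. Each multiplies all models of a library by 1 factor, so the ratios between members within a library are equal on all 3 scales, and only the common level moves. An FPKM of 1 equalled 0.697 to 0.817 TPM in floral libraries and 0.947 to 1.01 TPM in vegetative ones. On TPM all 100 members were lower in floral tissues, with a median log2 difference (floral minus vegetative, tissues weighted equally) of -0.36. On TMM-scaled FPKM all 100 were higher in floral tissues, with a median of 0.26. On FPKM the median was 0.01, with 54 members higher and 46 lower. The tissue of highest mean was a floral one in 50 members on FPKM, 0 on TPM and 99 on TMM-scaled FPKM. The most abundant members that were lowest in leaf on FPKM were so on TMM-scaled FPKM as well, but on TPM they were lowest in petal or bud. The same median over the 3565 models was 0.37 on FPKM, 0.00 on TPM and 0.62 on TMM-scaled FPKM.

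The members' coefficient of variation had a median of 18.1% on TPM and 15.2% on TMM-scaled FPKM, against 12.2% on FPKM. Their median ratio of highest to lowest tissue was 1.60 on TPM and 1.44 on TMM-scaled FPKM, and none reached 2 on either scale. The geometric mean of the 100 members, a yardstick of the kind that averages reference genes, was 57.8 ± 1.61 FPKM in floral and 57.5 ± 1.65 FPKM in vegetative libraries (SD, n = 6 each). It was 43.6 ± 3.51 and 55.9 ± 2.54 on TPM, and 63.1 ± 3.33 and 52.7 ± 1.62 on TMM-scaled FPKM, floral libraries first. Since the members were chosen to be level on FPKM, these shifts restate the factors between the scales.

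**Figure D4:**
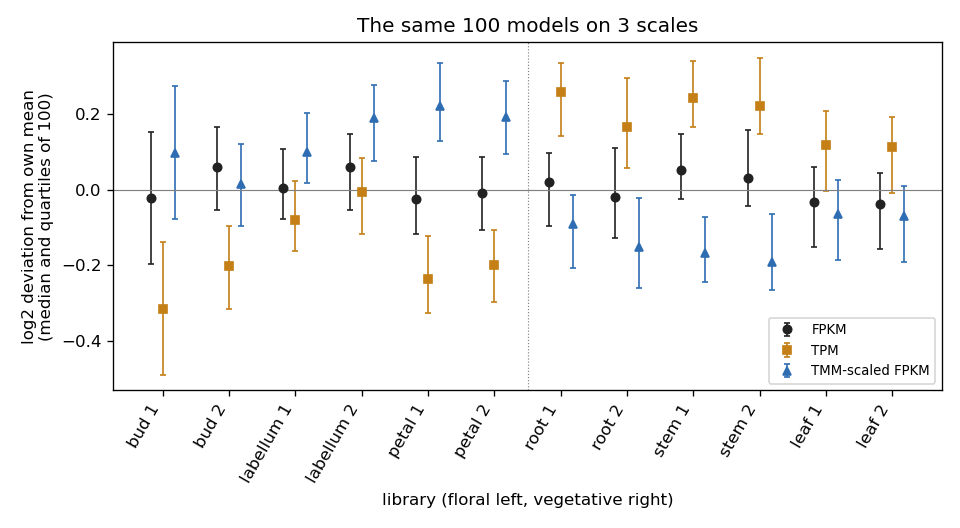
Median and quartiles (bars) of the log2 deviation of the same 100 models from their own mean (y) in each library (x, floral left of the dotted line, vegetative right), on FPKM (black circles), TPM (orange squares) and TMM-scaled FPKM (blue triangles). The FPKM medians stay between -0.037 and 0.059, while the TPM medians lie below 0 in the 6 floral libraries and above 0 in the vegetative ones, and the TMM medians do the reverse.

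Choosing 100 models from the same 3565 on another scale gave largely other models. The list on TPM shared 19 members and the list on TMM-scaled FPKM shared 41 with the list on FPKM, and those 2 lists shared 1 with each other. Only evm.model.Chr02.1097-gene was in all 3, with a coefficient of variation of 7.77% on FPKM (rank 3), 14.4% on TPM (rank 92) and 13.2% on TMM-scaled FPKM (rank 69). Of the 100 members 37 ranked within the first 200 of 3565 on TPM and 72 on TMM-scaled FPKM, and the worst ranks were 711 and 502.

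After evm.model.Chr02.1097-gene, the members that ranked best on their worst scale were evm.model.Chr01.113-gene (462 bp; ranks 40, 80 and 111 on FPKM, TPM and TMM-scaled FPKM) and evm.model.Chr06.603-gene (1188 bp; ranks 23, 91 and 112). They were followed by evm.model.Chr17.1597-gene (ranks 1, 116 and 36) and evm.model.Chr01.44-gene (984 bp; ranks 13, 102 and 116). On FPKM evm.model.Chr01.113-gene stood at 129 and 138 in bud, 92.3 and 103.4 in labellum, 104 and 113 in petal, 104 and 119 in root, 108 and 113 in stem, and 97.8 and 107 in leaf. Bud alone stood above the other tissues there. At the other extreme, evm.model.Chr18.2362-gene was the steadiest of all on TMM-scaled FPKM (6.47%) and ranked 431 on TPM (20.4%). The floral-below-vegetative model evm.model.Chr17.1070-gene was second on TMM-scaled FPKM (7.09%), and evm.model.Chr09.2272-gene was sixth on TPM (9.89%).

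The members were also read against each other. The mean SD of a member's log2 ratios to the other 99, a measure that no scaling can change and that is widely used to rank reference genes, ran from 0.193 to 0.281 with a median of 0.237. Lowest was evm.model.Chr02.1097-gene, and evm.model.Chr17.1597-gene followed at 0.196. The median was 0.244 in the list on TPM and 0.243 in the list on TMM-scaled FPKM. Each list was picked for low spread over these libraries, so low values follow from the choice and nothing is read from them.

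The edgeR quasi-likelihood test was run on the counts of 19123 models with TMM scaling. Of the 100 members 40 passed an adjusted p of 0.05 (Benjamini-Hochberg) for any difference among the 6 tissues, beside 81.2% of all tested models. At an unadjusted p under 0.05 there were 45, beside 82.9%. Since the members were chosen on these libraries, nothing can be read from the smaller share. Scaled by total counts, on which the members were chosen to be level, the same test passed 5 members, beside 81.6% of all models. The count moved with single libraries as well. It was 71 without bud replicate 2, beside 87% of all models in that fit. It was 8 and 9 without stem replicates 1 and 2, beside 71.9% and 71.8%. Without leaf replicates 1 and 2 it was 18 and 17, beside 71.4% each, and without petal replicates 1 and 2 it was 20 and 23, beside 74.1% and 73.9%.

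Between the organ classes 51 members passed an adjusted p of 0.05 as higher in floral tissues, beside 34.9% of all tested models, and 0 as lower, beside 31.2% (edgeR, Benjamini-Hochberg). With TMM scaling all 100 members were fitted as higher in floral tissues, with a median log2 difference of 0.268. They were chosen on these libraries to be level on FPKM. Their common direction therefore restates the factors between the scales, and nothing can be read from it. By total counts 5 were higher and 2 lower, beside 29.2% and 36.9% of all models. Without stem replicates 1 and 2 in turn 27 and 24 were higher, beside 30.8% and 30.7%. No member passed with a 2-fold change as well, in either direction, beside 24% of all models higher and 21% lower. An unadjusted p under 0.05 was reached by 62 members in either direction, beside 68.9% of all models. DESeq2 called 49 higher and 0 lower, beside 35.4% and 34.1% of all models. In at least 1 of the 15 pairs of tissues 83.7% of all tested models passed an adjusted p of 0.05 and a 2-fold change. By DESeq2 the share was 83.2%. No member passed both in any pair. DESeq2 also gave 0, and without root replicate 1 the number was 1, beside 80.1% of all models. At an adjusted p of 0.05 alone, 66 members differed in at least 1 pair, beside 90.3% of all models. Petal and stem had the most such members, 44 beside 55.4% of all models. The members were chosen for little spread over these libraries. Nothing can therefore be read from the absence of 2-fold calls or from the smaller shares in pairs of tissues.

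Among the steadiest models named above, evm.model.Chr17.1070-gene had the highest adjusted p for any difference, 0.74, with a fitted log2 floral over vegetative difference of 0.08 on the TMM scale. The adjusted p was 0.249 for evm.model.Chr17.1597-gene and 0.0531 for evm.model.Chr02.1097-gene, whose fitted differences were 0.23 and 0.32. The member with the largest fitted difference among those named was evm.model.Chr11.1695-gene, with a log2 petal over root difference of 0.95 and an adjusted p of 0.000279 (edgeR, Benjamini-Hochberg). A p above the threshold does not show that a model is equal in all tissues.

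Replicates that had no part in the choice gave a wider spread. The rule was applied to the 6 libraries numbered 1 alone, and the chosen models were read in the 6 numbered 2. Their median coefficient of variation was 15.6% in the libraries numbered 2, where they were read, against 11.1% in those numbered 1, where they were chosen. The median of all 3790 models at 20 FPKM or more in the choosing libraries was 40.1% in the reading ones. Of the 100 chosen, 99 lay below that median and 32 were among the 100 steadiest of the other 6 libraries. With the roles exchanged the values were 16.6% where read and 10.1% where chosen, and 100 models lay below a median of 42.2%. The replicates share their tissues, so this covers the libraries of these tissues and no others.

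Coding length entered the choice only through FPKM, which is scaled by it, and was compared between the lists. The members' median coding length was 1201.5 bp, against 864 bp for the 3565 well-expressed models. Models under 600 bp made up 8 of the 100, against 29.1% of the 3565. The next 100 models by rank were alike, with a median of 1173 bp and 5 under 600 bp. The shortest member was evm.model.Chr18.2262-gene (246 bp, 69.4 ± 9.81 FPKM), with 44.4 and 65.4 FPKM in bud and 58.4 to 78.2 FPKM in the other 10 libraries. The longest was evm.model.Chr09.2216-gene (3213 bp, 45.0 ± 5.64 FPKM), which stood at 61.1 FPKM in root replicate 2 and at 39.9 to 48.0 FPKM in the other 11 libraries.

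With the 3565 models in 5 classes of 713 by length, from shortest to longest, the list on FPKM held 5, 10, 19, 33 and 33 members. The list on TPM held 10, 22, 30, 28 and 10, with a median of 877.5 bp, and the list on TMM-scaled FPKM 0, 8, 17, 34 and 41, with a median of 1302 bp. In the same classes the median log2 floral minus vegetative difference on FPKM was 1.08, 0.71, 0.38, 0.08 and -0.26. It lay nearest to 0 in the class of 1017 to 1407 bp. The part that this trend with length has in the make-up of the lists was not tested. After removal of the length trend from each library, 67 members differed among the tissues, beside 77.9% of all models (edgeR, adjusted p under 0.05). In floral tissues 48 were higher, beside 32.3%, and 16 lower, beside 27.8%, and 19 differed at least 2-fold in a pair, beside 78.4%. The members were chosen to be level on FPKM without this removal, so nothing can be read from these calls. These lists were picked on values, so the class counts carry no test.

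**Figure D5:**
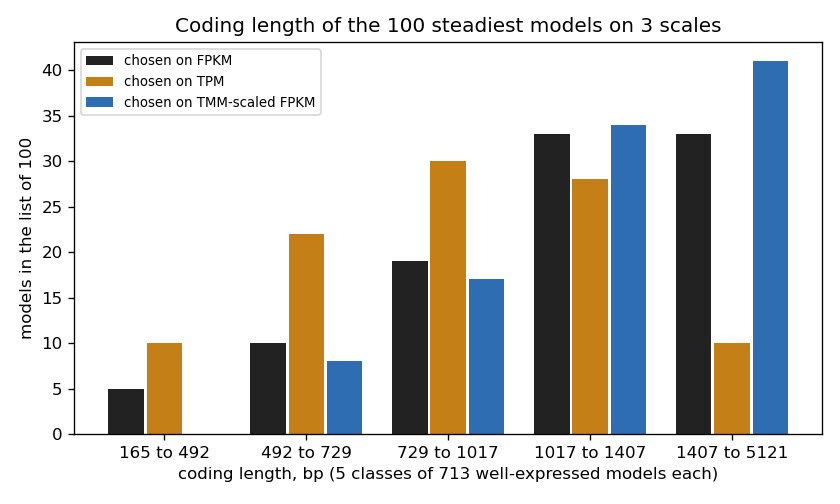
Number of models (y) of each list of 100 in 5 classes of coding length (x, bp, 713 well-expressed models per class), chosen on FPKM (black), TPM (orange) or TMM-scaled FPKM (blue). The class of 1407 to 5121 bp holds 33 of the FPKM list, 10 of the TPM list and 41 of the TMM list.

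Level moved with steadiness too, but the minimum of 20 FPKM in every library bears on this. A model with a mean near that minimum passes it only if it varies little, while an abundant model can vary widely and pass. The part of the minimum in the relation was not tested. In 5 classes of 713 models by mean FPKM, from lowest to highest, the members numbered 51, 20, 15, 10 and 4, and the median coefficient of variation of all models in the class was 26.2%, 34.4%, 42.8%, 47.3% and 56.2%. In the same classes the median floral minus vegetative log2 difference on FPKM was 0.00, 0.16, 0.39, 0.67 and 1.01.

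The members were scattered along the genome. They lay on all 19 chromosomes, with 12 on chromosome 9, 11 on chromosome 6 and 9 on chromosome 17, and 1 each on chromosomes 3 and 15. These counts were between 0.588% (chromosome 15) and 4.55% (chromosome 10) of the well-expressed models of a chromosome. No members were next to each other in the numbering of the models. The closest pair was evm.model.Chr01.44-gene and evm.model.Chr01.46-gene, with a single model between them, and no member stood next to a model of its own coding length.

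The models beside the members were read for their own levels. Of the 199 neighbours 97 (48.7%) reached an FPKM of at least 1 in all libraries, against 36.8% of all models, and their median coefficient of variation was 47.8%, against 49.2% for all models at that level. At 20 FPKM or more in every library were 32 neighbours (16.1%), against 11.3% of all models, with a median of 34.5% against 39.5%. The neighbours had more often a count in some library, since 19.6% of them had none, against 29.3% of all models. No test was made of these shares.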

How the data were processed

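RNA-seq of 12 libraries was used, 2 from each of 6 tissues, grouped by their titles. Per the labels, a Qiagen kit gave the RNA and a SMARTER kit for mRNA the libraries. The authors deposited raw whole-number counts and FPKM values for the same 31672 gene models. Each FPKM equalled the count divided by 1 length per model and by the library total; these lengths were whole within 0.01 bp and multiples of 3, hence coding lengths. The sources used here give no aligner, counter, strand handling or genome build for the orchid; GRCm38 and mm10, builds of the mouse genome, stand in the submitters' processing notes. Near-identical or overlapping models may therefore share reads.

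The members, the named models and the tests were chosen with earlier results of these data known. Named were the 10 lowest and the 3 values on each side of the limit, the 5 most abundant, the 5 with the best worst rank over 3 scales, the 5 with the largest tissue ratio, the 3 with the largest replicate ratio, and the shortest and longest. Where other parts of this rule named a model, it is described once.

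TPM was FPKM rescaled to 1 sum per library, and TMM-scaled FPKM used the TMM factors of edgeR 4.0.16 in R 4.3.3. Members were ranked on them among the same 3565 models. Counts were tested with the edgeR quasi-likelihood test after filterByExpr and TMM. The fit had 1 mean per tissue and 6 residual degrees of freedom, with Benjamini-Hochberg adjustment over 19123 models. The code of the fit was run on simulated counts with equal spread in every library. These data lack that equal spread, so the run checks the code and not the calls. Alternatives were other scalings, no filter, DESeq2 1.42.0, limma 3.58.1 on log2 FPKM with a pseudocount of 1 or 0.1, a replicate block, removal of the trend with length, other minima and measures of spread, and leaving out each library. Replicates differed beyond counting noise in all 6 tissues (chi-square over its degrees of freedom 4.46 in leaf to 196 in bud). Counting error covers reads only, since PCR copies are not independent.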

Additional observations from a re-analysis of the deposited data

Results flagged for a closer look

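Within the 6 floral or the 6 vegetative libraries, a value was singled out when its gap to the nearest other library exceeded 0.625 of the whole range. Of 64 groups checked 7 were singled out, where chance gives about 1 in 20 groups not chosen on their values. These models were named from the same values, so the 2 rates are not compared. Bud replicate 1 was the isolated library in 3 of them. It stood at 28.0 FPKM for evm.model.Chr09.485-gene (next 45.3, highest 46.7), at 44.4 FPKM for evm.model.Chr18.2262-gene (next 65.4, highest 77.6) and at 35.8 FPKM for evm.model.Chr17.1889-gene, just outside the list (next 60.8, highest 68.2).

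A root library was isolated in the other 4. Root replicate 1 stood at 32.8 FPKM for evm.model.Chr13.489-gene (next 40.9), at 85.2 FPKM for evm.model.Chr01.44-gene (next 69.6) and at 24.1 FPKM for evm.model.Chr18.109-gene (next 32.1). Root replicate 2, the library with the fewest counts, stood at 61.1 FPKM for evm.model.Chr09.2216-gene (next 45.6). No stem, leaf, petal or labellum library was isolated in these groups.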

How the results depend on the processing

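Members called for any difference among tissues, 40 by TMM, were 5 by total counts, 14 by limma with either pseudocount, 67 with the trend with length removed and 8 to 71 with 1 library left out. Those higher in floral tissues, 51, were 5 by total counts, 6 by limma and 24 to 70 with 1 library left out. Those lower, 0, were 2 by total counts, 4 by limma and 16 with the trend removed. At least 2-fold in a pair were 0, or 19 with the trend removed and 0 to 1 with 1 library left out. RLE factors, no filter and DESeq2 moved none of these counts by over 1.5 times. For any difference 81.2% of all models passed by TMM, 81.6% by total counts, 84.1% and 84.2% by limma, and 77.9% with the trend removed. In the same order 34.9%, 29.2%, 30%, 30.5% and 32.3% were higher in floral tissues, and 31.2%, 36.9%, 42.2%, 40.9% and 27.8% lower. At least 2-fold in a pair were 83.7%, 84.4%, 80.7%, 86.1% and 78.4%.

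Whether the replicate numbers pair libraries of different tissues is not labelled. Of 15 correlations of replicate differences between tissues (-0.37 to 0.22) 1 was over 0.1. On average 1 tissue of 6 was closer to its own number. Low correlations between unlike organs cannot exclude a pairing, and floral and vegetative libraries came from seedlings of different age. With a replicate block 29 members differed among tissues, beside 77.8% of all models. In floral tissues 45 were higher, beside 34.1%, and 0 lower, beside 30.5%, and 0 reached 2-fold in a pair, beside 81.7%.

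Of the 100 members 19 stayed on TPM, 41 on TMM-scaled FPKM, 34 with a minimum of 50 FPKM, 52 by the median absolute deviation, and 63 and 58 when the libraries numbered 1 or 2 chose. A minimum of 10, no minimum, the SD of log2 FPKM and tissue means kept 78 to 90. The list's median coefficient of variation, 12.2%, was 15.5% at 50 FPKM, 14.2% by the median absolute deviation, 9.91% over tissue means, and 15.6% and 16.6% in the libraries that did not choose. The floral minus vegetative median was -0.355 on TPM and 0.264 on TMM-scaled FPKM, and the median tissue ratio 1.60 and 1.44. The causes were not tested. Depth limits mainly root replicate 2.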
